A study of Homo sapiens with 11 samples.

Results

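Epithelial-mesenchymal transition (EMT) is the change in which an epithelial cell gives up its cell junctions and takes on the motile, matrix-producing character of a mesenchymal cell. It is described here by 10 genes taken by symbol, a rule that uses no measured value, although they were picked with earlier results of these data known. They are the regulators SNAI1, SNAI2, ZEB1, ZEB2, TWIST1 and TWIST2 and the markers CDH1, CDH2, VIM and FN1. All 10 were found among the 60605 features of the deposited table. The libraries are polyA RNA from ARPE-19, a cell line of human origin derived from the pigment epithelium of the retina (RPE). Stable cells were taken after 4 days of expression of GFP, the fluorescent protein used as control (n = 3 libraries), of Oct4, Sox2 or Klf4 alone, or of the 3 factors together (OSK; n = 2 libraries each). Every group is the same cell line with another open reading frame and no other treatment or allele is given. The library names of all factor lines carry the tag mC, which those of GFP lack, and its meaning is not given. In comparisons with GFP, what it stands for cannot be told apart from the factors. The labels do not say whether the libraries of a group came from separate cultures or whether a line is a clone, so the p-values measure only the spread between these libraries, which may be technical.

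SNAI, ZEB and TWIST proteins are transcription factors that bind E-box sequences, and SNAI and ZEB proteins are known as repressors of CDH1. CDH1 encodes E-cadherin, the cadherin of epithelial adherens junctions, and CDH2 encodes N-cadherin, which RPE cells and mesenchymal cells carry. VIM encodes the intermediate filament protein vimentin, and FN1 encodes fibronectin, a secreted matrix protein. The RPE is an epithelium, but in culture and in scarring disease of the retina its cells can take on mesenchymal features, with fibronectin as a familiar product.

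The promoters of FN1 and ZEB1 are shown because FN1 had the largest changes of the 10 genes and ZEB1 was the regulator that rose in every line. Sequences are from RefSeq (GRCh38.p14), whose table of promoters held 6 of the 10 genes. For FN1 the stretch is chr2:215436173-215436318, minus strand, from 250 to 105 bases before the transcription start. Its capitals mark a cyclic AMP response element (TGACGTCA, which reads the same on both strands) and the letters CACCC or, on the other strand, GGGTG, a core that KLF proteins can bind. For ZEB1, which has 7 start windows in that table, the most upstream one is shown, chr10:31318167-31318416, plus strand. Its capitals mark the E-box CACCTG that ZEB and SNAI proteins bind, here on the other strand as CAGGTG, from 57 to 52 bases before the start.
FN1: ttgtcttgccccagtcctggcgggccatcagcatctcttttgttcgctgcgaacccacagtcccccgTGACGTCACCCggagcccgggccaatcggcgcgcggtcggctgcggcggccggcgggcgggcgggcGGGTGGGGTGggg
ZEB1: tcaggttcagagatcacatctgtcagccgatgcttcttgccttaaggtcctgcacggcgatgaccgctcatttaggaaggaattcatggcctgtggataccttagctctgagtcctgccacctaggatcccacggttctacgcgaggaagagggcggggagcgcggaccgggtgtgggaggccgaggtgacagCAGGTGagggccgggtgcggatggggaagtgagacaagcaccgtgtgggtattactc

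In the FN1 stretch the response element occupied bases 183 to 176 before the start, and 1 of the 3 CACCC matches overlapped its end. Among 35116 promoter windows cut to the same 146 bases, 0.421% held the response element and 37.1% held CACCC on either strand. The ZEB1 window held 1 E-box, as did 17.5% of all windows of 250 bases, counting any number of matches. It also held 2 CACCC matches, which are not in capitals, a core found in 54.7% of those windows. The FN1 stretch held 0 E-boxes (11.3% of windows of its length held one). Neither the octamer ATGCAAAT that Oct4 binds nor the letters ATTGTT of SOX sites, each searched on both strands, occurred in these stretches. Over all windows of the respective lengths the octamer was found in 0.860% (146 bases) and 1.63% (250 bases) and ATTGTT in 5.59% and 8.98%. These are letter matches and not measured sites.

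Values below are normalised counts, with each library's reads scaled by its own factor. From 15053300 to 19791775 reads were recovered per library. In 9 libraries 25853 to 26971 features had a read, against 42956 in GFP replicate 1 and 32493 in OSK replicate 1, so results that rest on these are also given without them. In the lines labelled for them, POU5F1 (the gene of Oct4) had 19020 to 67326 normalised counts, SOX2 17582 to 29141 and KLF4 22142 to 24470. In all other libraries the 3 genes had at most 446, 197 and 248. Of the RPE markers, MITF (748 to 3603) and OTX2 (1175 to 2372) were present in every library, whereas RPE65, a defining marker of mature RPE, had at most 4.63 normalised counts in any library. A gene was tested if its value reached 10 in at least 2 libraries. Of the 10 genes, 7 passed in all 11 libraries, SNAI1 passed only through GFP replicate 1 and Sox2 replicate 2, and SNAI2 and TWIST2 did not pass. Log2 changes and their SE are on the scale of log2(value + 1), and a change was called at a limma adjusted p-value under 0.05 over the 18828 features tested.

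Each line had its own combination of changes. With Oct4, FN1 rose close to 10-fold and ZEB1 rose while TWIST1 fell. With Sox2, 6 of the 8 tested genes rose and none fell. With Klf4, ZEB1 rose while ZEB2, TWIST1, CDH2 and FN1 fell. With OSK, ZEB1 rose most and CDH1, ZEB2, CDH2, VIM and FN1 fell. Against GFP, 3 genes were called in the Oct4 line (2 up, 1 down), 6 in the Sox2 line (all up), 5 in the Klf4 line (1 up, 4 down) and 6 in OSK (1 up, 5 down). The shares of all features called were 37.3%, 41.6%, 33.5% and 39.7%. By direction they were 20.1% higher and 17.2% lower with Oct4, 21.7% higher and 19.9% lower with Sox2, 17.6% higher and 16.0% lower with Klf4, and 19.7% higher and 20.0% lower with OSK. The median log2 change of the 8 tested genes was 0.11, 0.85, -0.46 and -0.52, and that of all features lay between -0.02 and -0.01. These comparisons share the GFP libraries.

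**Figure D1:**
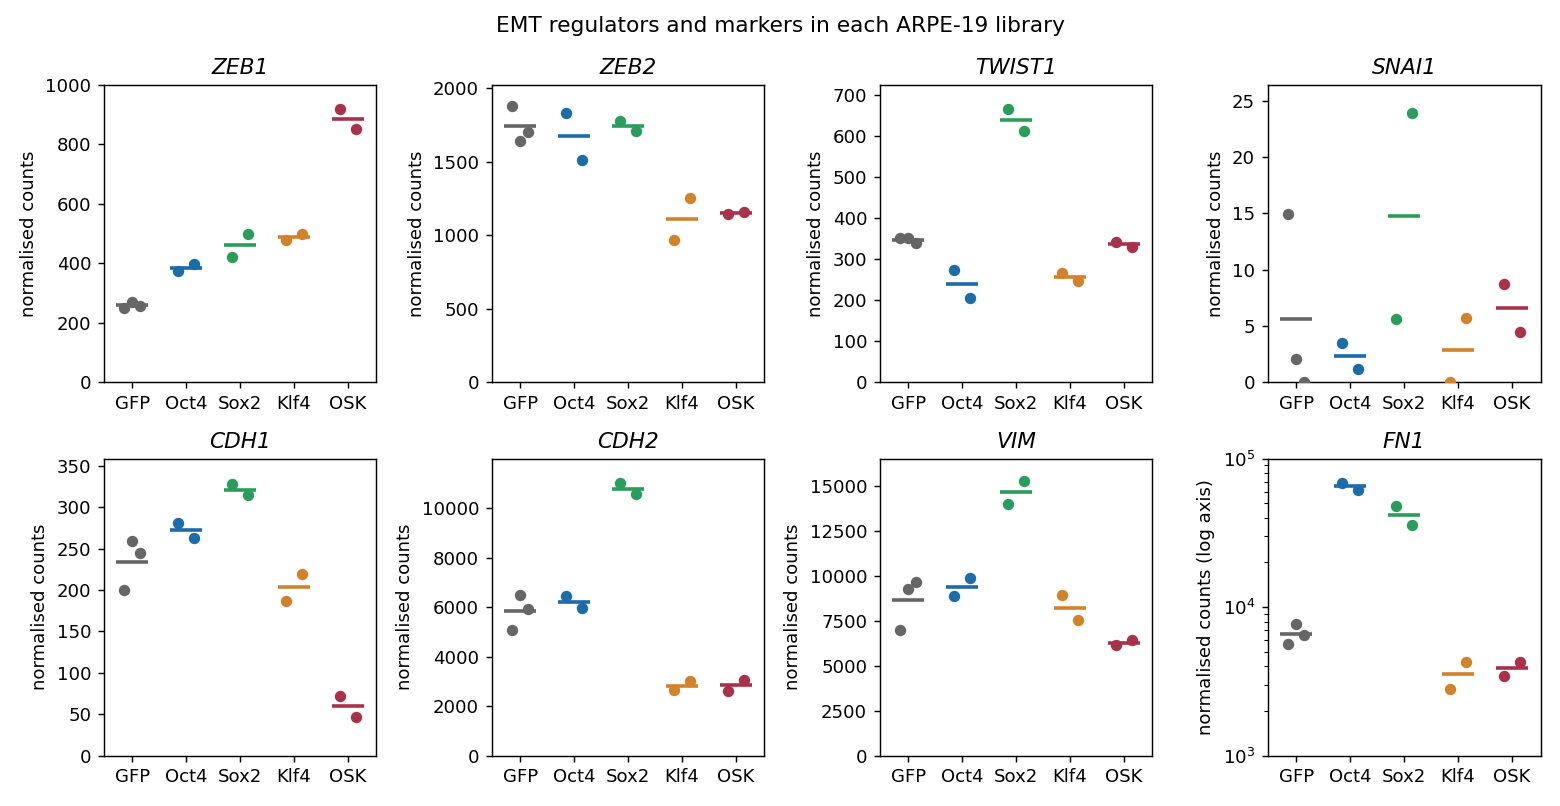
Normalised counts of 8 EMT genes in each of the 11 libraries (points) by group, with the group mean (line). The FN1 axis is logarithmic and the others start at 0. ZEB1 was highest and CDH1 lowest in both OSK libraries, TWIST1, CDH2 and VIM were highest in both Sox2 libraries, and FN1 was highest in the Oct4 libraries.

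Among the regulators, ZEB1 (chromosome 10, 31318495 to 31529814 in GRCh38, GENCODE 29) was raised in every line. It had 250, 270 and 256 normalised counts in the GFP libraries, 373 and 396 with Oct4, 422 and 498 with Sox2, 479 and 497 with Klf4, and 919 and 854 with OSK. No library of a factor line overlapped the GFP libraries, and the OSK libraries lay above all others. By the limma test ZEB1 rose by 0.57 on the log2 scale in the Oct4 line (adjusted p = 0.000176), 0.82 in the Sox2 line (adjusted p = 3.1e-06), 0.91 in the Klf4 line (adjusted p = 1.75e-06) and 1.77 in OSK (adjusted p = 7.3e-10). The SE was 0.09 throughout. ZEB1 in OSK was higher by 1.20 than with Oct4, by 0.95 than with Sox2 and by 0.86 than with Klf4 (SE 0.10, adjusted p at most 1.51e-05). In the order of levels, the Sox2 and Klf4 lines did not differ detectably (-0.09, 95% interval -0.31 to 0.13, adjusted p = 0.537). The Oct4 line was at -0.25 from the Sox2 line (-0.48 to -0.03), which did not pass after adjustment (adjusted p = 0.0726) except without Sox2 replicate 1 (-0.37, adjusted p = 0.0357). The antisense gene ZEB1-AS1, which shares 366 exonic bases with ZEB1, had 12.6 to 45.1 normalised counts. Use of strand in counting is not given in the sources used here, so reads of such pairs cannot be told apart. Antisense genes also share exonic bases with ZEB2 (ZEB2-AS1, 1299 bases, at most 4.28 normalised counts), CDH1 (347 bases), TWIST1 (141) and CDH2 (136). Those of CDH1, TWIST1 and CDH2 were not found by name among the deposited features.

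ZEB2, the other ZEB repressor, moved the opposite way where it moved. It had 1881, 1640 and 1702 normalised counts in GFP, 1831 and 1514 with Oct4, 1776 and 1712 with Sox2, 968 and 1250 with Klf4, and 1145 and 1159 with OSK. The Klf4 and OSK libraries lay below all others. ZEB2 fell by 0.66 on the log2 scale with Klf4 (SE 0.10, limma adjusted p = 0.000115) and by 0.59 with OSK (SE 0.10, adjusted p = 0.00023). It did not change detectably with Oct4 (-0.06, 95% interval -0.28 to 0.16, adjusted p = 0.681) or Sox2 (0.00, -0.21 to 0.22, adjusted p = 0.977). OSK and Klf4 did not differ detectably (0.07, -0.17 to 0.31, adjusted p = 0.745), and OSK was below the Oct4 line (-0.53, adjusted p = 0.00127) and the Sox2 line (-0.60, adjusted p = 0.000482).

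The 2 ZEB genes can be set against each other within a library, per kb of exon (all annotated exons merged). The ratio of ZEB2 to ZEB1 was 2.33 ± 0.251 in GFP (SD, n = 3), 1.51 ± 0.266 with Oct4, 1.32 ± 0.189 with Sox2, 0.783 ± 0.120 with Klf4 and 0.449 ± 0.0276 with OSK (n = 2 each). Per length ZEB2 was thus above ZEB1 in the GFP, Oct4 and Sox2 libraries and below it in the Klf4 and OSK libraries. The level of this ratio depends on the exon lengths used (25058 bases for ZEB2 and 8650 for ZEB1), and its order between libraries does not.

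TWIST1, a basic helix-loop-helix factor of mesenchyme, separated Sox2 from the rest. Its normalised counts were 351, 352 and 340 in GFP, 273 and 206 with Oct4, 668 and 612 with Sox2, 266 and 247 with Klf4, and 343 and 330 with OSK. Both Sox2 libraries lay above all others and the Oct4 and Klf4 libraries below all others. The log2 change from GFP was 0.88 with Sox2 (SE 0.11, limma adjusted p = 1.16e-05), -0.55 with Oct4 (SE 0.11, adjusted p = 0.00123) and -0.44 with Klf4 (SE 0.11, adjusted p = 0.00727). With OSK the gene was at -0.05 from GFP (95% interval -0.29 to 0.20, adjusted p = 0.785), which was 0.93 below the Sox2 line (adjusted p = 1.9e-05) and 0.50 above the Oct4 line (adjusted p = 0.00423). Leaving out Klf4 replicate 2 ended the call of Klf4 against GFP (-0.38, adjusted p = 0.0692), and leaving out Oct4 replicate 2 that of OSK against Oct4 (0.30, adjusted p = 0.0801). TWIST1 was also called higher in OSK than in the Klf4 line (0.39, adjusted p = 0.0358), but not under 8 of 23 alternatives, among them leaving out any library of either group (adjusted p from 0.0766 to 0.168).

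The remaining regulators were at or near the limit of detection. SNAI2 had 2 reads in GFP replicate 1, 1 read in Klf4 replicate 2 and 0 in the other 9 libraries, where a count of 0 allows up to 3 reads, or 0.152 to 0.199 CPM, reads scaled to a common total (counting error only). TWIST2 had 11, 6 and 2 reads in the GFP libraries and at most 3 in any other. SNAI1 had 15, 2 and 0 reads in GFP, 3 and 1 with Oct4, 5 and 28 with Sox2, 0 and 5 with Klf4 and 8 and 4 with OSK. The SNAI1 values of each line overlapped those of GFP, and no comparison of it passed (limma adjusted p at least 0.156 in the 10 comparisons). With Sox2 its log2 change was 1.82, with a 95% interval of -0.58 to 4.22. GFP replicate 1, the library with the most features detected, held the highest GFP value of SNAI1, SNAI2 and TWIST2. The part of that library's broad low signal in these values was not tested.

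Of the markers, CDH1 (chromosome 16, 68737225 to 68835548) stood out in OSK. It had 200, 259 and 245 normalised counts in GFP, 281 and 263 with Oct4, 328 and 315 with Sox2, 187 and 219 with Klf4, and 71.5 and 47.3 with OSK. The OSK libraries lay far below every other library, and OSK had 25.3% of the GFP mean. The log2 change with OSK was -1.98 (SE 0.17, limma adjusted p = 1.07e-07). OSK was also below the Oct4 (-2.21), Sox2 (-2.44) and Klf4 lines (-1.78), with an SE of 0.18 and adjusted p-values of at most 2.69e-06. CDH1 was not called lower with any single factor: the change was 0.22 with Oct4 (95% interval -0.13 to 0.58, adjusted p = 0.328) and -0.20 with Klf4 (-0.55 to 0.15, adjusted p = 0.395). With Sox2 it was called higher (0.46, SE 0.17, adjusted p = 0.036). That call was lost with no filter (adjusted p = 0.0967), without GFP replicate 1 (0.35, adjusted p = 0.111) or replicate 3 (adjusted p = 0.0527), and without Sox2 replicate 1 or 2 (adjusted p = 0.162 and 0.11). CDH1 was lowest and ZEB1 highest in the OSK libraries. In each single-factor line ZEB1 was above GFP and CDH1 was not called lower. A link between the levels of these genes was not tested.

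CDH2 (chromosome 18, 27950966 to 28177446) was higher with Sox2 and lower with Klf4 and OSK. It had 5089, 6476 and 5938 normalised counts in GFP, 6469 and 5977 with Oct4, 11006 and 10563 with Sox2, 2652 and 3001 with Klf4, and 2610 and 3063 with OSK. The Sox2 libraries lay above, and the Klf4 and OSK libraries below, all the others. The log2 change from GFP was 0.89 with Sox2 (limma adjusted p = 1.66e-06), -1.04 with Klf4 (adjusted p = 5.27e-07) and -1.04 with OSK (adjusted p = 3.68e-07), with an SE of 0.10 for all of these. With Oct4 it was 0.10 (95% interval -0.11 to 0.30, adjusted p = 0.462). OSK and Klf4 did not differ detectably (0.00, -0.22 to 0.23, adjusted p = 0.989), and OSK lay 1.93 below the Sox2 line (SE 0.11, adjusted p = 8.48e-10).

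Per kb of exon, CDH2 exceeded CDH1 in every library. The ratio was 31.1 ± 0.789 in GFP (SD, n = 3), 28.5 ± 0.279 with Oct4, 41.9 ± 0.0635 with Sox2 and 17.4 ± 0.421 with Klf4 (n = 2 each). With OSK it was 45.5 in replicate 1 and 80.8 in replicate 2, from 66 and 43 CDH1 reads. The libraries of no group overlapped those of another in this ratio, with Oct4 (28.7 and 28.3) just below GFP (30.3 to 31.8). A ratio within a library shows unequal change of the 2 genes: with Klf4 it moved with the fall of CDH2, and with OSK both cadherins fell, CDH1 more.

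**Figure D2:**
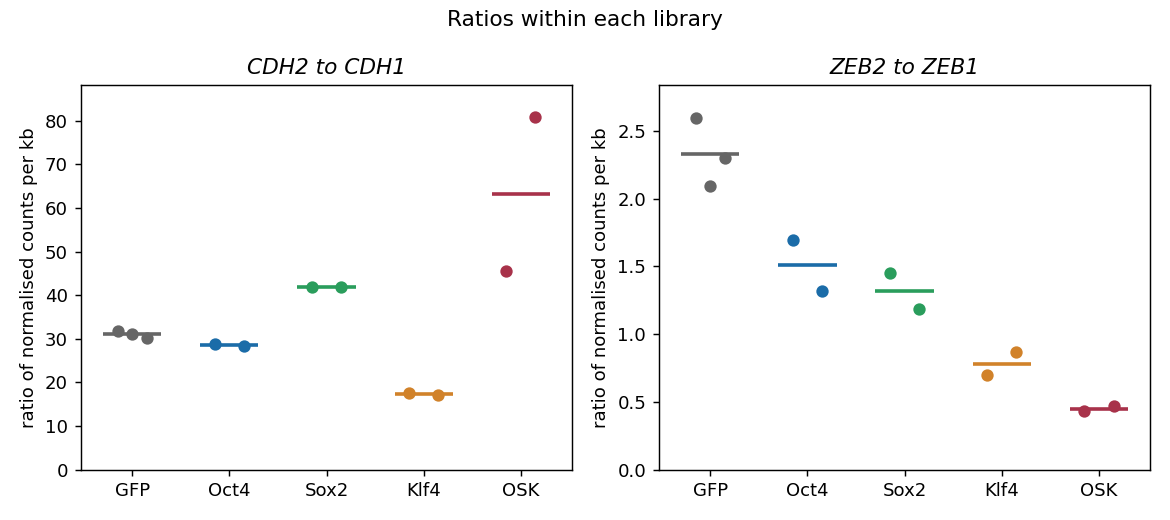
Ratios of normalised counts per kb of exon within each library (points) with the group mean (line), for CDH2 to CDH1 (left) and ZEB2 to ZEB1 (right). Klf4 libraries have the lowest cadherin ratio (17.1 and 17.7) and OSK libraries the highest (45.5 and 80.8). The ZEB ratio is below 1 in the Klf4 and OSK libraries.

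VIM was called against GFP with Sox2 and OSK. Its normalised counts were 6970, 9251 and 9666 in GFP, 8864 and 9862 with Oct4, 14002 and 15255 with Sox2, 8933 and 7512 with Klf4, and 6128 and 6404 with OSK. Both Sox2 libraries were above, and both OSK libraries below, all the others. VIM rose with Sox2 (0.77, SE 0.12, limma adjusted p = 5.1e-05) and fell by 0.45 with OSK (SE 0.12, adjusted p = 0.00575). The OSK call was lost without OSK replicate 1 (-0.42, adjusted p = 0.0578). It was also lost with TMM scaling over all features (-0.41, adjusted p = 0.0619). With Oct4 the change was 0.13 (95% interval -0.12 to 0.38, adjusted p = 0.416) and with Klf4 -0.06 (-0.31 to 0.19, adjusted p = 0.735). Without GFP replicate 1, which had the lowest GFP value, the Klf4 change was -0.21 and was called (adjusted p = 0.0433). OSK was called below the Klf4 line (-0.39, adjusted p = 0.0407), but not under 12 of 23 alternatives, among them edgeR with TMM factors (adjusted p = 0.0604) and leaving out Klf4 replicate 1, either OSK library or any Oct4 or Sox2 library (adjusted p from 0.0518 to 0.329). VIM-AS1, an antisense gene sharing 641 exonic bases with VIM, had 18.7 to 53.8 normalised counts.

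FN1 (chromosome 2, 215360440 to 215436172) had the widest range of the 10 genes. It had 5613, 7716 and 6460 normalised counts in GFP, 68911 and 61434 with Oct4, 47756 and 35718 with Sox2, 2798 and 4301 with Klf4, and 3450 and 4298 with OSK. The Oct4 and Sox2 libraries lay far above GFP and the Klf4 and OSK libraries below it, with no overlap. Mean counts were 9.88-fold above GFP with Oct4 (log2 change 3.31, SE 0.17, limma adjusted p = 3.9e-10) and 6.33-fold with Sox2 (2.66, SE 0.17, adjusted p = 3.53e-09). With Klf4 the mean was 53.8% of GFP (-0.91, SE 0.17, adjusted p = 0.000515) and with OSK 58.7% (-0.76, SE 0.17, adjusted p = 0.0017). OSK received Oct4 and Sox2 too, and its FN1 mean was 5.94% of the Oct4 line (-4.08, SE 0.18, adjusted p = 1.07e-10) and 9.28% of the Sox2 line (-3.42, SE 0.18, adjusted p = 6.7e-10). Of the delivered genes, POU5F1 and SOX2 were lower in OSK than alone and KLF4 was not: POU5F1 had 19020 and 19542 normalised counts there and 67326 and 66823 in the Oct4 line, and SOX2 17764 and 17582 there and 29106 and 29141 in the Sox2 line. KLF4 had 24470 and 24202 in OSK and 24205 and 22142 in the Klf4 line. The part of these levels in the FN1 difference was not tested. OSK did not differ detectably from the Klf4 line (0.15, 95% interval -0.24 to 0.54, adjusted p = 0.638). Oct4 was above Sox2 by 0.66 (adjusted p = 0.0114), a call lost without Oct4 replicate 1 (0.57, adjusted p = 0.0924), without Sox2 replicate 2 (0.45, adjusted p = 0.153) and with DESeq2 (0.64, adjusted p = 0.0659). Counts are per gene, so the spliced forms of fibronectin are not separated.

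**Figure D3:**
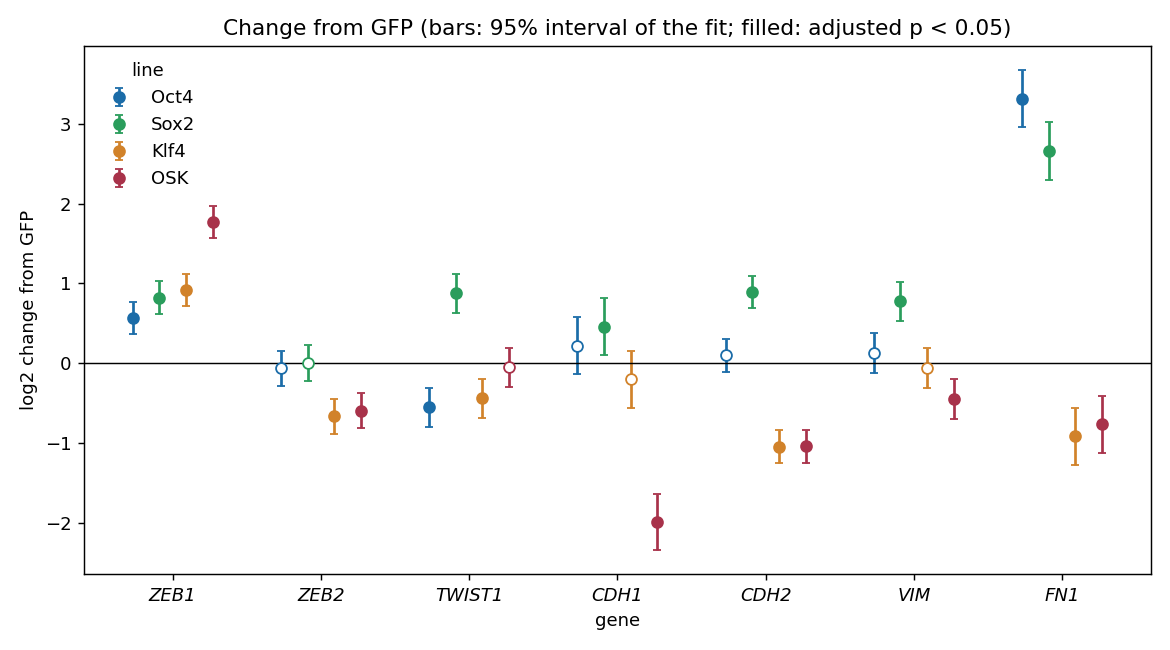
Log2 change from GFP of the 7 EMT genes with values of at least 10 in all libraries, by line (colour), with the 95% interval of the fit; filled points had an adjusted p-value under 0.05. ZEB1 is above 0 in all 4 lines, FN1 reaches 3.31 with Oct4 and 2.66 with Sox2, and CDH1 is at -1.98 with OSK.

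Of the 8 tested genes, OSK differed from the Klf4 line in 4, with ZEB1 and TWIST1 higher and CDH1 and VIM lower. Of all features 21.5% differed there, 9.56% higher and 11.9% lower. From the Oct4 line it differed in 7 (40.3% of features) and from the Sox2 line in 7 (40.5%). The TWIST1 and VIM calls against Klf4 are those lost in several alternatives above, and without them ZEB1 and CDH1 are left. Among single factors, Oct4 and Sox2 differed in 4 of 8 genes (33.4% of features), Oct4 and Klf4 in 4 (41.7%) and Sox2 and Klf4 in 6 (40.8%). All 6 were higher with Sox2, as were 20.1% of features, against 20.7% lower. The CDH1 call between them was lost without Sox2 replicate 1 (0.63, adjusted p = 0.0531) or Klf4 replicate 1 (0.55, adjusted p = 0.0788). ZEB1 was called lower with Oct4 than with Klf4 (-0.34, adjusted p = 0.014). That call was lost without Oct4 replicate 1 (-0.30, adjusted p = 0.088), without Klf4 replicate 2 (-0.32, adjusted p = 0.0752), with DESeq2 (adjusted p = 0.0508) and with TMM scaling over all features (adjusted p = 0.0785).

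Other genes of the transition were read from lists written from general knowledge. Their counts stand beside the shares of all features called, which were 20.1% higher and 17.2% lower with Oct4, 21.7% and 19.9% with Sox2, 17.6% and 16.0% with Klf4, and 19.7% and 20.0% with OSK, and their medians beside -0.02 to -0.01 for all features. Of 35 mesenchymal effector genes (among them matrix, contractile, protease, adhesion and receptor genes), 32 were tested: 21 were higher and 4 lower with Oct4, 19 and 3 with Sox2, 5 and 18 with Klf4, and 11 and 15 with OSK. The higher calls with Klf4 were near the share over all features. The list medians were 1.07, 1.01, -0.54 and -0.37. ACTA2, smooth muscle actin, had 528 ± 245 normalised counts in GFP (SD, n = 3) and rose to 3302 ± 566 with Oct4 (n = 2; log2 change 2.76, SE 0.28, limma adjusted p = 9.84e-07) and 1929 ± 250 with Sox2 (1.99, adjusted p = 2.52e-05). In OSK ACTA2 was lower (-1.56, adjusted p = 0.000289). It was also called lower with Klf4 (-0.90, adjusted p = 0.0203), but that call was lost without GFP replicate 2 or 3 or either Klf4 replicate (adjusted p from 0.0725 to 0.11). TAGLN, an actin-binding protein, took the same directions, with 1.71 with Oct4, 1.88 with Sox2, -1.85 with Klf4 and -2.48 with OSK (SE 0.24, adjusted p at most 2.91e-05). COL1A1, a chain of type I collagen, rose with Sox2 (1.02) and fell with Klf4 (-1.72) and OSK (-2.50, SE 0.21, adjusted p at most 0.000753). With Oct4 COL1A1 was at -0.32 (adjusted p = 0.256), called only without GFP replicate 1 (-0.51, adjusted p = 0.0312; 0.0239 also without OSK replicate 1). The fibronectin receptor subunit ITGA5 rose in all 4 lines, 2.02-fold with Oct4, 3.34-fold with Sox2, 6.06-fold with Klf4 and 4.60-fold with OSK (adjusted p at most 3.8e-06). PLAUR, the urokinase receptor, rose with Sox2 (1.12), Klf4 (2.75) and OSK (2.15, SE 0.21, adjusted p at most 0.000448). With Oct4 PLAUR was at -0.11 (adjusted p = 0.727), and without Oct4 replicate 1 it was called lower (-0.61, adjusted p = 0.0158). CDH11, a mesenchymal cadherin, had 2279 ± 157 normalised counts in GFP, 7857 ± 1089 with Oct4 (1.78, SE 0.09, adjusted p = 4.87e-10) and 7026 ± 44.4 with OSK (1.63, adjusted p = 1.27e-09). With Klf4 CDH11 was at -0.15 (adjusted p = 0.237), and with Sox2 it was lower (-0.33, adjusted p = 0.00788), a call lost without Sox2 replicate 1 (-0.26, adjusted p = 0.111) and with TMM scaling over all features (adjusted p = 0.146).

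Of 35 epithelial junction and polarity genes, 34 were matched and 32 tested. With Oct4, 4 were higher and 9 lower, with Sox2 4 and 10, with Klf4 8 and 7, and with OSK 6 and 14, and the medians were -0.31, -0.43, -0.02 and -0.35. The higher calls with OSK were near the share of all features called higher there (19.7%), and both counts with Klf4 were not far above theirs (17.6% and 16.0%). PARD6B, a polarity protein, fell in each line, with log2 changes of -2.27 with Sox2, -0.73 with Klf4 and -1.41 with OSK (SE 0.11), and to 49.9% of the GFP mean with Oct4 (limma adjusted p at most 8.81e-05 in all 4). DSP, the desmosomal plaque protein desmoplakin, had 3600 ± 429 normalised counts in GFP and rose to 16337 ± 598 with Klf4 (2.19, SE 0.09, adjusted p = 6e-11), 9325 ± 55.5 with OSK (1.38, adjusted p = 5.71e-09) and 6157 ± 426 with Sox2 (0.78, adjusted p = 2.93e-06). With Oct4 DSP was at 0.29 (adjusted p = 0.0177), a call lost without Oct4 replicate 2 (0.21, adjusted p = 0.195) and with TMM scaling over all features (adjusted p = 0.0891). PKP2, another desmosomal plaque protein, fell with Klf4 (-0.95) and OSK (-1.31, SE 0.09, adjusted p at most 6.88e-07). It was not called with Oct4 (-0.19, adjusted p = 0.11) or Sox2 (-0.21, adjusted p = 0.0726), but was with Sox2 without GFP replicate 1 (-0.25, adjusted p = 0.0385) or either OSK replicate (adjusted p = 0.0433 and 0.0451), and in both lines without the first replicates of GFP and OSK (adjusted p = 0.0323 and 0.0194). CLDN1, a tight junction claudin, rose with Sox2 (1.52) and Klf4 (1.19, SE 0.15, adjusted p at most 1.01e-05). It was at -0.26 with Oct4 (adjusted p = 0.175, and 0.0324 without Oct4 replicate 1, at -0.50) and -0.28 with OSK (adjusted p = 0.149).

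Keratinocyte and surface epithelium markers, 8 genes of which 5 were tested, differed by line. With Klf4 3 of the 5 were higher and none lower, with OSK 1 was higher and 1 lower, with Sox2 3 were lower, and with Oct4 none was called. Over all features 17.6% were higher with Klf4, 19.7% higher and 20.0% lower with OSK, and 19.9% lower with Sox2. The OSK counts were thus near the background. KRT13, a keratin of mucosal epithelium, had 28.8 to 59.3 normalised counts in GFP, 1422 and 1469 with Klf4 and 2913 to 3832 with OSK. DSC3, a desmosomal cadherin, had 1106 to 1254 in GFP, 1276 to 1300 with Klf4 and 792 to 816 with OSK, and it fell by 0.57 on the log2 scale with OSK (SE 0.08, limma adjusted p = 1.82e-05). KRT14 had 111 to 147 with Klf4 and 2.2 to 3.25 with OSK, KRT15 19.4 to 28.9 and 2.17 to 2.2, and KRT4 105 to 189 and 5.42 to 6.6. In GFP these genes had at most 12.9, 15.9 and 12.9. The summed level of the 8 genes was 1202 to 1324 in GFP, 3032 to 3050 with Klf4 and 3722 to 4671 with OSK. KRT13 and DSC3 made up most of the OSK sum. KRT5 and DSG3, defining genes of stratified epithelium, had at most 5.72 in any library. The part of these markers in the results was not tested.

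Of 15 regulators that hold the epithelial state 10 were tested, and GRHL2, OVOL1, ELF5 and the host genes MIR200CHG and MIR205HG did not pass the filter. With Sox2, 6 of the 10 were lower and 1 higher, with Oct4 and Klf4 3 were lower and 1 higher, and with OSK 4 were lower and 1 higher. Over all features 19.9%, 17.2%, 16.0% and 20.0% were lower with Sox2, Oct4, Klf4 and OSK. The medians were -0.94 with Sox2, -0.44 with Oct4, -0.32 with Klf4 and -0.53 with OSK. ELF3, an epithelial ETS factor, had 86.3 ± 21.8 normalised counts in GFP, 13.3 ± 0.948 with Oct4 (-2.59, limma adjusted p = 7.57e-07), 12.2 ± 0.247 with Sox2 (-2.70, adjusted p = 3.49e-07) and 156 ± 5.41 with Klf4 (0.87, adjusted p = 0.0145), with an SE of 0.25. With OSK it was at -0.43 (adjusted p = 0.208). The Klf4 call of ELF3 was lost without GFP replicate 2 or 3 and without either Klf4 replicate (adjusted p from 0.0525 to 0.0999). KLF5, a factor of proliferating epithelium, fell with Sox2 (-0.34), Klf4 (-0.71) and OSK (-1.14, SE 0.07, adjusted p at most 0.000809), the Sox2 call being lost with TMM scaling over all features (adjusted p = 0.0764). With Oct4 KLF5 was at 0.01 (adjusted p = 0.942).

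**Figure D4:**
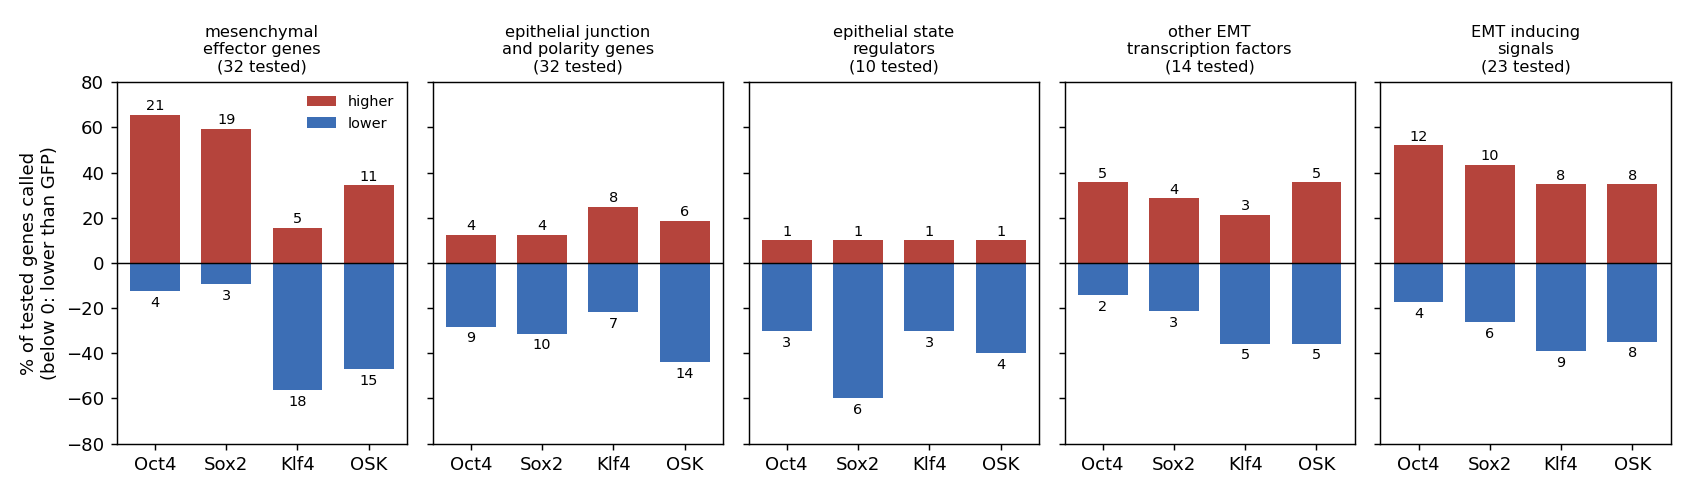
Percent of the tested genes of 5 lists called higher (above 0) or lower (below 0) than GFP in each line, with the number of genes beside each bar. Mesenchymal effector genes are mostly higher with Oct4 (21 of 32) and Sox2 (19) and more often lower than higher with Klf4 (18 against 5). With OSK 11 are higher and 15 lower. Of all features, which are not drawn, 20.1% were higher with Oct4 and 21.7% with Sox2. With Klf4 17.6% were higher and 16.0% lower, and with OSK 19.7% and 20.0%.

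Other transcription factors linked to EMT went in both directions. Of 18, 14 were tested: 5 were higher and 2 lower with Oct4, 4 and 3 with Sox2, 3 and 5 with Klf4, and 5 and 5 with OSK (medians 0.42, 0.25, -0.40 and -0.01). Over all features the higher calls were 20.1%, 21.7%, 17.6% and 19.7% and the lower calls 17.2%, 19.9%, 16.0% and 20.0%. Of the 14, the 3 higher with Klf4, the 2 lower with Oct4, and the 4 higher and 3 lower with Sox2 were near the background. RUNX2 rose with Oct4 (5.33-fold, log2 change 2.40) and Sox2 (6.06-fold, 2.58), with an SE of 0.17 and limma adjusted p-values of at most 1.93e-08. With Klf4 RUNX2 was at 0.53 (adjusted p = 0.026), a call lost without GFP replicate 2 or either Klf4 replicate (adjusted p from 0.0614 to 0.139) and with DESeq2 (adjusted p = 0.124), and with OSK at 0.16 (adjusted p = 0.514). HMGA2, an architectural chromatin protein, had 87.7 ± 15.1 normalised counts in GFP and rose 3.02-fold with Oct4 (adjusted p = 2.29e-06), 1.83-fold with Sox2 (adjusted p = 0.000712) and 1.71-fold with OSK (adjusted p = 0.00214). The OSK call was lost without the first replicates of GFP and OSK (0.46, adjusted p = 0.092), and with Klf4 HMGA2 was at 0.39 (adjusted p = 0.101). TCF4, a partner of TWIST proteins, rose with Sox2 (1.00) and was lower with Klf4 (-1.40) and OSK (-0.73, SE 0.17, adjusted p at most 0.00227), and was at -0.26 with Oct4 (adjusted p = 0.25). PRRX1, a homeobox factor of mesenchyme, was lower with Sox2 (-0.76), Klf4 (-1.47) and OSK (-1.42, SE 0.22, adjusted p at most 0.00943) and higher with Oct4 (0.82, adjusted p = 0.00676). The Sox2 call of PRRX1 was lost without Sox2 replicate 2 (-0.67, adjusted p = 0.0812) and the Oct4 call without Oct4 replicate 2 (0.72, adjusted p = 0.0784). SIX2 had 9.93, 5.06 and 3.89 normalised counts in GFP and 72.6 and 92.4 with OSK (3.59, SE 0.55, adjusted p = 7.29e-05), against at most 16.3 in the other lines, where it was not called.

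Signals known to induce EMT, with their receptors and regulators, were examined in 25 genes, of which 23 were tested. The list includes the inhibitor SMAD7, so its counts do not give a direction of signalling. With Oct4, 12 were higher and 4 lower, with Sox2 10 and 6, with Klf4 8 and 9, and with OSK 8 and 8 (medians 0.40, 0.16, 0.12 and 0.00). Of all features 37.3%, 41.6%, 33.5% and 39.7% were called in either direction. JAG1, a Notch ligand, rose in all 4 lines, by 1.17 with Oct4, 3.35 with Sox2, 2.45 with Klf4 and 3.50 with OSK (SE 0.08, limma adjusted p at most 1.81e-08). The ligand TGFB1 rose with Sox2 (1.63, SE 0.14), was lower with Klf4 (-0.74) and OSK (-0.72, adjusted p at most 0.000789 in these 3) and was at 0.19 with Oct4 (adjusted p = 0.328). LTBP1, which holds latent TGF-beta in the matrix, rose with Sox2 (3.06, SE 0.09, adjusted p = 5.64e-13) and Oct4 (1.03, adjusted p = 1.36e-07). LTBP1 was also called with Klf4 (0.34, adjusted p = 0.00596; 0.0974 without Klf4 replicate 2) and OSK (0.23, adjusted p = 0.0482), the OSK call being lost under 14 of 23 alternatives, with adjusted p up to 0.289 without OSK replicate 2. TGFBR3, the co-receptor betaglycan, was lower with Sox2 (-3.30) and Oct4 (-2.01, SE 0.16, adjusted p at most 5.57e-08) and at 0.08 with OSK (adjusted p = 0.722). With Klf4 TGFBR3 was called higher (0.51, adjusted p = 0.0209), which was lost without GFP replicate 2 or 3 or either Klf4 replicate (adjusted p from 0.0601 to 0.112). SMAD7, the inhibitory SMAD that TGF-beta itself induces, was lower in all 4 lines, with Oct4 (-0.64), Sox2 (-0.80), Klf4 (-0.92) and OSK (-1.97, SE 0.11, adjusted p at most 0.000363).

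The Hippo pathway effector WWTR1 rose in all 4 lines, by 1.68 with Oct4, 1.48 with Sox2, 0.48 with Klf4 and 1.12 with OSK (SE 0.08, limma adjusted p at most 0.000216). Its relative YAP1 rose with Oct4 (1.07) and Sox2 (1.18, SE 0.06, adjusted p at most 1.61e-09) and was at 0.00 with OSK (adjusted p = 0.987). With Klf4 YAP1 was lower (-0.27, adjusted p = 0.00274), a call lost with TMM scaling over all features (adjusted p = 0.173). Among 18 corepressors and stability regulators of the EMT factors, the list medians lay between -0.04 and 0.09, and 6 were called with Oct4 (3 higher, 3 lower), 9 with Sox2 (7 and 2), 7 with Klf4 (4 and 3) and 8 with OSK (6 and 2). Of all features 37.3%, 41.6%, 33.5% and 39.7% were called in either direction, so these totals were near the background. By direction, 21.7% of all features were higher and 19.9% lower with Sox2, and 19.7% and 20.0% with OSK. In both lines the higher calls of the list lay above that share and the lower calls below it. HDAC2, a deacetylase that SNAI1 recruits, was lower with Oct4 (-0.34), Klf4 (-0.54) and OSK (-0.53, SE 0.07, adjusted p at most 0.000736), and the Oct4 call was lost with TMM scaling over all features (-0.29, adjusted p = 0.0738). With Sox2 HDAC2 was at -0.09 (adjusted p = 0.279).

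Markers of cell types were read beside these genes. Of 17 RPE markers 12 were tested: 2 were higher and 8 lower with Oct4, 1 and 7 with Sox2, 2 and 4 with Klf4, and 2 and 9 with OSK. Over all features 20.1%, 21.7%, 17.6% and 19.7% were higher in these lines and 17.2%, 19.9%, 16.0% and 20.0% lower. The higher calls with Oct4, Klf4 and OSK were thus near the background. The summed level of the RPE markers was 13392 to 17665 normalised counts in GFP, 4610 to 5422 with Oct4, 2632 to 2676 with Sox2, 8833 to 11000 with Klf4 and 5936 to 6355 with OSK. PMEL, a protein of pigment granules, was lower with Oct4 (-3.07), Sox2 (-5.23), Klf4 (24.7% of GFP) and OSK (-2.65; SE 0.20, limma adjusted p at most 1.02e-06). RDH5, a retinol dehydrogenase of the visual cycle, rose with Oct4 (1.28), Klf4 (6.16-fold) and OSK (1.24, SE 0.19, adjusted p at most 6.52e-05). Fibroblast markers summed to at most 574 over 8 genes, reached in a Sox2 library mainly through MFAP5 (369 to 545 with Sox2, 5.83 to 17.2 in GFP), while DPT was at 0 in every library and DCN had at most 5.96. MFAP5 was also above GFP with Klf4 (71.99 to 78.65) and OSK (59.39 to 106.23). PI16 had 40.48 to 62.84 with Klf4 and 54.2 to 61.59 with OSK, against at most 2.98 in the libraries of GFP, Oct4 and Sox2. Endothelial markers summed to 574 to 1534, mostly KDR, and immune markers to at most 96.3, with PTPRC at most 2.24. In bulk RNA, fewer cells of a type and less RNA per cell cannot be told apart, and the part of these markers in the EMT results was not tested.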

How the data were processed

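Reads of 11 ARPE-19 RNA libraries were processed with STAR 2.7.1a and featureCounts 1.6.2, per the submitters' processing notes, which also name human (GRCh38) and mouse builds with no role; strand use and annotation are not given in the sources used here. The unit of the deposited file is a signal, normalised counts with 2 decimals, which by its values the authors made by scaling the gene counts of a library by 1 factor. Each value of at most 200 was a whole multiple of its library's step (100%, tolerance 0.0061), and reads were recovered from these steps. Groups came from the sample titles.

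The 10 genes and all lists were chosen with earlier results of these data known. The main test was limma 3.58.1 (R 4.3.3; trend, two-sided) on log2(value + 1), with features of at least 10 in at least 2 libraries, all 11 libraries in 1 fit with a mean per group (6 residual and 9.21 prior degrees of freedom) and Benjamini-Hochberg adjustment over 18828 features. The procedure was also run on simulated counts. These had the same spread setting for every gene and lacked the broad low signal of GFP replicate 1, so that run does not gauge the calls given here. Alternatives were edgeR 4.0.16 and DESeq2 1.42.0 on recovered reads, TMM scaling, pseudocounts of 0.5 and 5, no filter, a mean of 1 CPM, only the compared groups, a replicate block and leaving out libraries. TMM scaling over all features was added after seeing the data. List genes given with a log2 change were among the 3 largest called rises or falls per list and line. Only genes with 1 of the group means at 50 or more and separate libraries in that line were ranked. Most of these genes are then given in every line. Other cell type markers, and genes that did not pass the filter, are named without a test. Exon lengths and positions are from GENCODE 29. Intervals for 0 reads cover counting error only.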

Additional observations from a re-analysis of the deposited data

How the results depend on the processing

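Of 1791 values of the EMT genes under the alternatives, 1746 kept their side of the threshold and, where called, their direction. Another 39 fell short of the threshold, 6 newly passed it and 0 called changes reversed. For the other named genes against GFP, counted in the same way, 7373 of 7715 were kept, 290 fell short, 52 newly passed and 0 reversed. Direction was not compared for changes that were not called. Some of these changed sign, such as ZEB2 in Oct4 against GFP (-0.20 to 0.08). The number of EMT genes called in OSK against Klf4, 4 as reported, was 2 with no filter and 2 with TMM scaling over all features, and over single left-out libraries it ranged from 2 to 4. The number of features called in that comparison ranged from 2539 to 4918 when a library was left out, against 4049. For the other comparisons the counts of EMT genes and of features stayed within 1.5 times the reported ones under every alternative run. When a line was left with 1 library, its spread was assumed to be that of the other groups.

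Replicate numbers did not pair the libraries: the correlation of same-numbered deviations was -0.07 to 0.04 for 9 pairs of groups and 0.41 for GFP with OSK, whose first replicates both had many features detected. With the replicate number as a block, on the libraries numbered 1 and 2, the EMT genes called against GFP were 3, 5, 5 and 6 with Oct4, Sox2, Klf4 and OSK; CDH1 with Sox2 was the one lost (0.50; adjusted p = 0.0643). Without GFP replicate 1 and OSK replicate 1 together, CDH1 in OSK was at -2.39 and ZEB1 at 1.70. With TMM over all features the median change shifted by at most 0.07. Depth limits SNAI1, SNAI2 and TWIST2, at 0 to 28 reads per library.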
